A study of Homo sapiens with 18 samples.

Results

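A set of 44 genes of the DNA replication machinery were followed in MDA-MB-436, an established triple-negative human breast cancer cell line, with and without SMARCAL1. The 44 symbols were taken from a list of replication factors and found in both count files, which share 29240 symbols, by a rule that uses no measured value, though the list was drawn up with earlier results of these data known. They fall into 8 roles: origin recognition and licensing (9 genes), the MCM2-7 helicase (6), helicase activation (6), the sliding clamp and its loader (6), polymerases and primase (9), flap processing and ligation (3), fork coupling and checkpoint (3), and chromatin assembly (2). RNA was measured in 18 libraries of 8 groups. In TruSeq libraries of total RNA, 3 control libraries were set against 3 of SMARCAL1 knockout clone 1. In PLATE-seq, a pooled plate assay of polyadenylated RNA, 2 libraries each came from a control, knockout clones 1, 2 and 3, a control siRNA and an siRNA against SMARCAL1. All cultures were kept in DMEM with bovine growth serum and antibiotics, and no other agent is named in the labels. Each clone is 1 clonal line, so a difference between a clone and its control can be a property of that clone. Every title names MDA-MB-436. The tagged line name of the 12 PLATE-seq samples counts upward with the sample number instead, so the titles were followed. The titles mark the samples of a group as biological replicates without saying whether these were separate cultures, so p-values measure the spread between these samples, which may be technical.

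Replication begins where the origin recognition complex loads the ring-shaped MCM2-7 helicase on DNA with the help of CDC6 and CDT1. In S phase CDC45 and the GINS complex join MCM2-7 to form the active helicase, polymerase alpha with primase lays primers, and polymerases delta and epsilon extend them on PCNA, the clamp that replication factor C loads. Most of these genes are transcribed from the end of G1 under E2F factors, so their RNA is high in dividing cells, and SMARCAL1 is an annealing helicase that acts on stalled forks of the same process.

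E2F-type letters near the transcription start are a feature that many of these genes share and that the choice of members did not use. In RefSeq promoters on GRCh38.p14 (250 bases before to 50 after the start), 39 of the 44 genes were matched by symbol. The letters TTTCCCGC, TTTCGCGC, TTTGCCGC or TTTGGCGC, on either strand, stood in 18 of the 39 (46.2%), against 1164 of all 35116 promoters (3.31%). The letters CCAAT stood in 22 (56.4%), against 34.6% of all promoters. For each gene of the set the first listed promoter was read, while the shares of all promoters count every listed promoter. A match is a run of letters, not a measured binding site. Shown first are short windows around matches in the promoters of MCM7, GINS2, RFC3 and CLSPN, those of the 6 genes plotted by library that hold a match (CHAF1B and FEN1 hold none), each 5′ to 3′ on the strand of its gene with the match in capitals (GCGGGAAA is TTTCCCGC read on the other strand).
MCM7, first match (chr7:100101567-100101594, minus strand): agctcggaccGCGGGAAAcccggcgcct
MCM7, second match (chr7:100101389-100101416, minus strand): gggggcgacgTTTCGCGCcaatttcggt
GINS2 (chr16:85688968-85688995, minus strand): tctcgccgtgGCGGGAAAacggcggccg
RFC3 (chr13:33818084-33818111, plus strand): tttggagctcGCGGGAAAacttgtctct
CLSPN (chr1:35769966-35769993, minus strand): ctctggctggGCGGGAAAgcaagaacag
The first MCM7 match begins 187 bases before the RefSeq start and the second 9 bases before it. The 200 bases before that start touch annotated exons of longer MCM7 transcripts and of AP4M1, a gene of the opposite strand. The 200 bases before the MCM6 start (chr2:135876444-135876643, minus strand) touch no annotated exon and are shown because they hold 4 matches in 2 overlapping pairs, more than those of any other gene of the set.
MCM6: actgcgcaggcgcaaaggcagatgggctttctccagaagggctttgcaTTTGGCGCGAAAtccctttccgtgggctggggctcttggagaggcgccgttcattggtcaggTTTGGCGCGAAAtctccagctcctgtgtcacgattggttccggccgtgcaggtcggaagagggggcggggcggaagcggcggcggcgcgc
Having such letters did not sort the genes by their change in knockout clone 1. In TruSeq the median log2 change was -0.03 over the 18 genes with the letters (from -0.30 to 0.53) and -0.05 over the 21 without (from -0.34 to 0.20). MCM7 and MCM6 both hold several matches and differed in response, at 0.53 and -0.01.

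Totals ran from 10257584 to 19270648 counts in TruSeq and from 807861 to 3068887 in PLATE-seq, where 3 counts correspond to 0.978 to 3.71 CPM. The TruSeq libraries fell into 3 with 36042 to 39068 detected features (2 control, 1 knockout) and 3 with 28621 to 30653 (1 control, 2 knockout). SMARCAL1 itself measured 13.9 to 16.0 CPM in TruSeq control and 13.3 to 14.7 CPM in clone 1, so gene-level counts do not check the knockout label. In PLATE-seq, SMARCAL1 had 0 counts in both libraries of its siRNA, against 7 and 8 counts in the siRNA control, and 0 and 3 counts in the control against 3 to 44 in libraries of the clones. Scaled for depth, the control was at 0 and 3.69 CPM and clone 1 at 1.77 and 3.25 CPM, inside that range. Clone 2 was at 8.25 and 3.05 CPM and clone 3, with the deepest libraries, at 7.05 and 13.2 CPM. Markers of the line (VIM, CD44, EGFR, CAV1 and MSN) were detected in every library, and 6 of 9 such markers (CAV1, EGFR, FN1, KRT17, KRT7 and SPARC) were called between clone 1 and control in TruSeq. The hormone receptors ESR1 and PGR reached at most 0.965 and 0.402 CPM in TruSeq and 0 in PLATE-seq, whereas the luminal keratins KRT8 and KRT18 were at 512 to 866 and 553 to 814 CPM in TruSeq. CD3E, PTPRC, CDH5 and VWF were at 0 in PLATE-seq. Other leukocyte and endothelial markers were not: CD68, CD14, LYZ, PECAM1 and KDR reached 5.08, 4.82, 0.589, 4.12 and 0.980 CPM there. The endothelial genes VWF, KDR, PECAM1 and CDH5 reached 4.76, 3.14, 2.77 and 0.765 CPM in TruSeq. FN1 and SPARC, 2 mesenchymal genes, reached at most 4.92 and 14.8 CPM in PLATE-seq and were at 0 in some of its libraries. The summed level of 5 leukocyte markers (CD68, CD14, LYZ, CD3E and PTPRC), most of it CD68 and CD14, was 29.99 to 33.7 CPM in TruSeq control and 23.1 to 25.6 CPM in clone 1, with PTPRC, the defining leukocyte gene, at most 2.68 CPM and CD3E at 0 to 0.554 CPM. The part of these differences in the results was not tested.

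In knockout clone 1, TruSeq libraries held the replication machinery at close to its control level. MCM7, a subunit of the replicative helicase, rose and CHAF1B, the middle subunit of chromatin assembly factor 1, fell. The other 42 genes did not pass the test. Their 44 levels (CPM, counts scaled to a common library size by edgeR's TMM method) summed to 3784 to 3948 CPM in control and 3703 to 3925 CPM in clone 1, and these ranges overlap. By edgeR's quasi-likelihood test with Benjamini-Hochberg adjustment over 17371 genes, 2 of 44 were past 0.05, 1 higher and 1 lower, where 6.27% of all genes tested were (3.96% higher and 2.31% lower). The share, 2 of 44, is thus not above that of all genes. With any 1 of the 6 libraries left out, 0 or 1 of the 44 passed. The median log2 change was -0.03 over the 44 genes and -0.00 over all genes tested. At unadjusted p under 0.05 stood 9 of the 44, against 20.4% of all genes. The 3 control and 3 clone 1 values did not overlap for 14 of the 44 (31.8%), against 26.3% of all genes (13.6% higher and 12.7% lower): DNA2, LIG1, MCM7, ORC5 and RFC2 were higher and CDC6, CHAF1B, GINS1, GMNN, ORC2, ORC4, POLA2, PRIM1 and TIPIN lower. TruSeq was precise enough to bound most of these changes: the 95% interval of the log2 change lay within -0.50 to 0.50 for 40 of the 44 genes and within -1 to 1 for 44. With the side of the split by detected features as a term, 9 of the 44 were past 0.05, among 3793 of the 17371 genes tested. That share of the 44 is again not above that of all genes. MCM7 and ORC3 were higher and CDC6, CDT1, CHAF1B, GINS1, GINS3, GMNN and ORC1 lower. Between 6 libraries split 2 to 1 and 1 to 2, that split and the knockout are only in part separable.

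**Figure D1:**
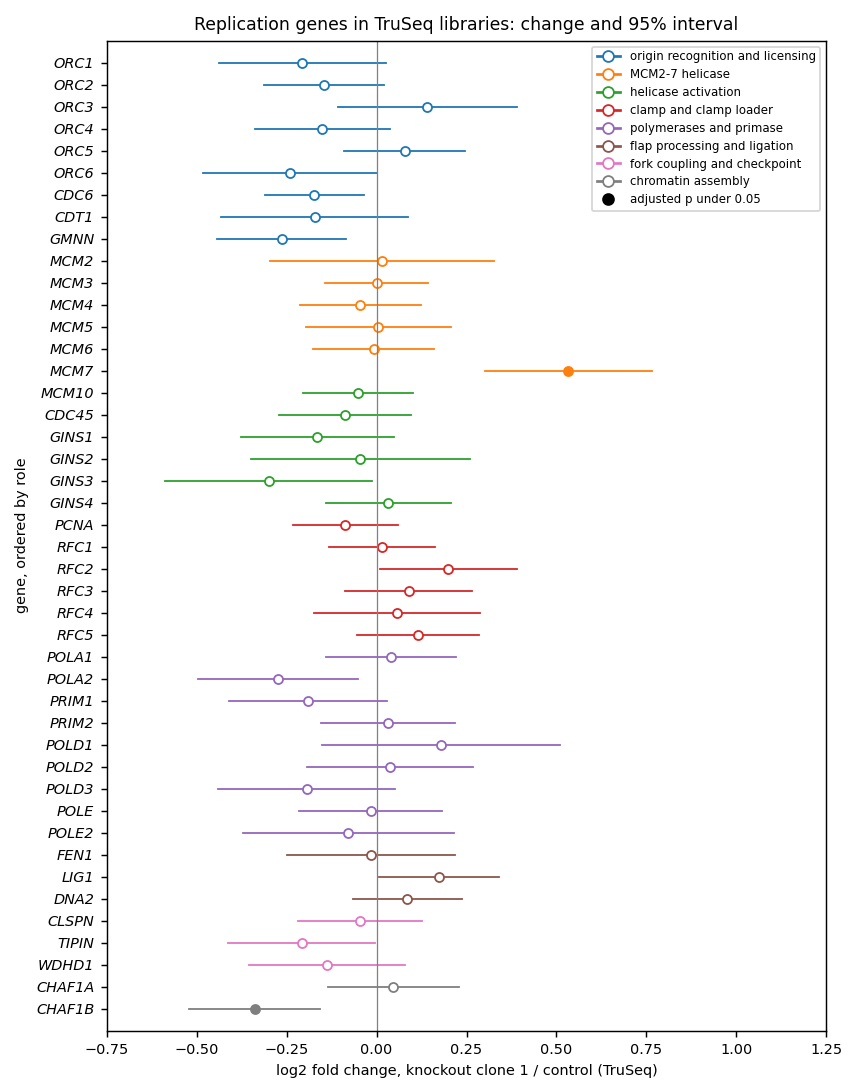
Log2 fold change of each of the 44 replication genes in TruSeq knockout clone 1 against control (x axis), with its 95% interval from the edgeR fit, ordered and coloured by role, 3 libraries a group. Filled points, MCM7 at 0.53 and CHAF1B at -0.34, are past an adjusted p of 0.05, and most other intervals cross 0.

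PLATE-seq covered the same question in 3 clones and with siRNA, at lower depth. There 39 of the 44 genes passed the filter on low counts and GINS3, PRIM1, PRIM2, POLE2 and DNA2 did not. By edgeR's quasi-likelihood test, adjusted over 8595 genes, 0 of the 39 passed 0.05 in clone 1, where 4 stood at unadjusted p under 0.05 (8.19% of all genes did) and DESeq2 called 0. Clone 2 likewise gave 0 by edgeR, 1 at unadjusted p under 0.05 (9.66% of all genes) and 0 by DESeq2. Clone 3 gave 0 by edgeR, 2 at unadjusted p under 0.05 (11.9% of all genes) and 1 by DESeq2. For the mean of the 3 clones edgeR gave 0, 3 stood at unadjusted p under 0.05 (10.1% of all genes) and DESeq2 called 0. After SMARCAL1 siRNA against the siRNA control edgeR gave 0, 3 stood at unadjusted p under 0.05 (6.33% of all genes) and DESeq2 called 0. Among all genes tested, edgeR called 0.0% in clone 1, 0.0349% in clone 2, 0.675% in clone 3, 0.198% for the mean and 0.0% for siRNA, so few genes of any kind passed. A test of differences among the 3 clones called 0 of the 39 by edgeR, with 2 at unadjusted p under 0.05 (CLSPN and RFC1, against 11.3% of all genes) and 0 by DESeq2, where edgeR called 0.71% of all genes. The median log2 change over the 39 genes was -0.14 in clone 1, -0.25 in clone 2, -0.07 in clone 3 and 0.04 after siRNA, where that over all genes was 0.01, 0.01, 0.02 and -0.02. All 3 clones share 1 control, and with the siRNA control in its place the medians were 0.10, 0.05 and 0.21, so their sign depended on the control. The median standard error of a log2 change was 0.57 in clone 1, against 0.08 in TruSeq, and 0 of the 39 intervals lay within -0.50 to 0.50, so changes of the TruSeq size could not be resolved.

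**Figure D2:**
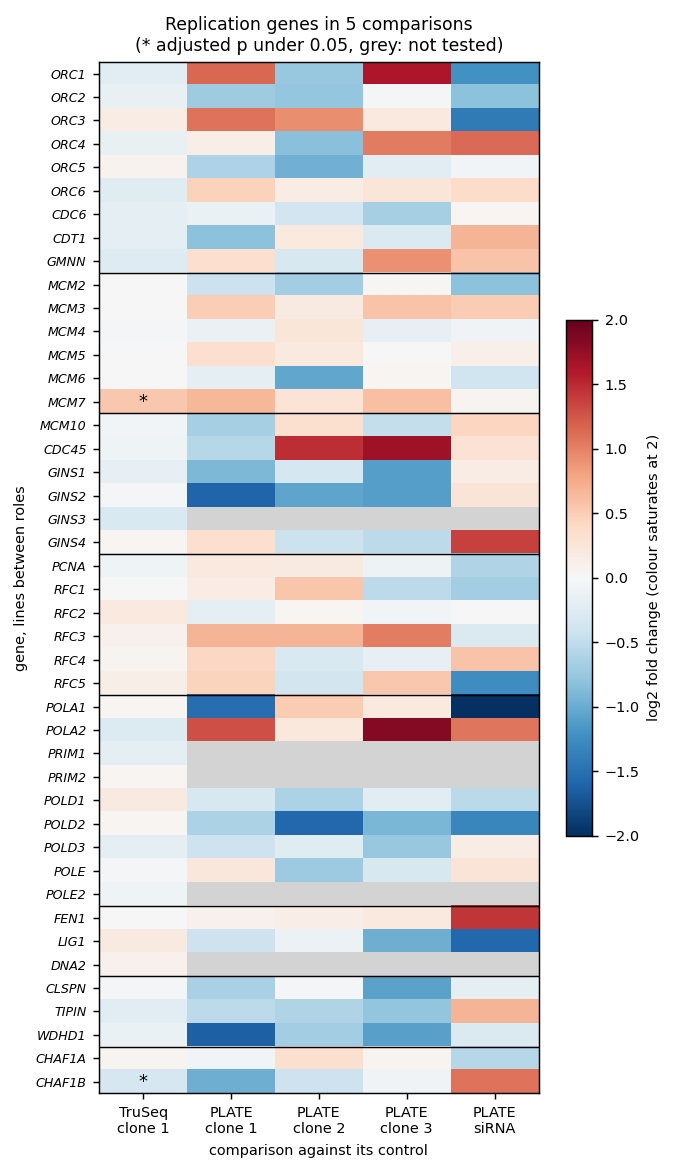
Log2 fold change (colour) of the 44 replication genes (rows, by role) in TruSeq clone 1, the 3 PLATE-seq clones and PLATE-seq siRNA, each against its control, with grey for genes under the filter. Both asterisks, for MCM7 and CHAF1B, are in the TruSeq column, and the PLATE-seq columns reach -2.16 for POLA1, beyond the colour scale.

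Origin recognition and licensing genes stood slightly below control in TruSeq clone 1, with 7 of 9 below 0 and a median log2 change of -0.17. However, 0 of 9 passed edgeR's test, and DESeq2 called 0 of the 9. Only 2, CDC6 and GMNN, stood at unadjusted p under 0.05, a share near the 20.4% of all genes. ORC1 measured 69.9, 82.8 and 86.3 CPM in the TruSeq control libraries and 62.2, 75.0 and 69.8 CPM in those of clone 1. ORC1 is the ATPase subunit of the origin recognition complex whose level follows the cell cycle, and its library ranges overlapped. CDC6 measured 99.2, 102 and 99.1 CPM in the TruSeq control libraries and 88.3, 88.6 and 89.4 CPM in those of clone 1. This loader of the helicase was lower in all 3 clone 1 libraries (log2 -0.17, SE 0.06, edgeR adjusted p = 0.144). CDT1 measured 49.9, 56.2 and 68.4 CPM in the TruSeq control libraries and 49.4, 53.6 and 52.2 CPM in those of clone 1, with overlap. GMNN measured 35.5, 36.3 and 35.7 CPM in the TruSeq control libraries and 31.9, 29.5 and 28.4 CPM in those of clone 1. GMNN, geminin, binds CDT1 and blocks a further round of loading, and its groups did not overlap (log2 -0.26, SE 0.08, edgeR adjusted p = 0.0922). Such separation of the TruSeq groups, here and in the roles below, was seen for 26.3% of all genes. PLATE-seq measured GMNN at 23.0 and 7.38 CPM in the control, 20.6 and 18.4 in clone 1, 14.4 and 10.2 in clone 2, 24.2 and 33.7 in clone 3, 39.1 and 17.4 in the siRNA control and 40.5 and 43.1 after SMARCAL1 siRNA. There GMNN was neither uniformly high nor low in the clones. PLATE-seq measured CDC6 at 15.3 and 38.1 CPM in the control, 27.7 and 20.6 in clone 1, 11.3 and 29.5 in clone 2, 18.9 and 14.7 in clone 3, 25.2 and 15.3 in the siRNA control and 21.6 and 19.6 after SMARCAL1 siRNA. PLATE-seq measured CDT1 at 52.6 and 13.5 CPM in the control, 11.8 and 26.0 in clone 1, 42.3 and 34.5 in clone 2, 31.7 and 22.9 in clone 3, 15.6 and 13.9 in the siRNA control and 31.0 and 15.7 after SMARCAL1 siRNA. For both, every clone had at least 1 library between the 2 control libraries. PLATE-seq measured ORC1 at 1.1 and 6.15 CPM in the control, 10.6 and 5.41 in clone 1, 4.12 and 0 in clone 2, 10.6 and 11.4 in clone 3, 8.69 and 11.1 in the siRNA control and 5.4 and 2.94 after SMARCAL1 siRNA. ORC1 was among the highest changes in clone 1 (log2 1.15, SE 1.09, edgeR adjusted p = 0.848), from 1 and 5 counts in the control. PLATE-seq measured ORC3 at 12.1 and 9.84 CPM in the control, 21.2 and 25.4 in clone 1, 13.4 and 28.4 in clone 2, 14.1 and 11.1 in clone 3, 23.5 and 16.0 in the siRNA control and 6.07 and 8.82 after SMARCAL1 siRNA. ORC3, a core subunit, was above both control libraries in clone 1 (1.08, SE 0.59, edgeR adjusted p = 0.675) and clone 2 (0.93, SE 0.61, adjusted p = 0.673) and below both siRNA control libraries after siRNA (-1.41, SE 0.61, edgeR adjusted p = 0.687). The remaining 4 genes, ORC2, ORC4, ORC5 and ORC6, ran from -0.24 to 0.08 in TruSeq.

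Within the MCM2-7 helicase, MCM7 stood apart from its 5 partners in TruSeq clone 1. MCM7 measured 129, 140.4 and 152 CPM in the TruSeq control libraries and 175, 219 and 215 CPM in those of clone 1. Every clone 1 library was above every control library. Its mean rose from 140 ± 11.5 to 203 ± 24.7 CPM (SD, n = 3 each), a log2 change of 0.53 (SE 0.10, 95% interval 0.30 to 0.76, edgeR adjusted p = 0.0192). MCM2, MCM3, MCM4, MCM5 and MCM6 ran from -0.05 to 0.01, with intervals that all crossed 0. MCM2 measured 166, 180.3 and 225 CPM in the TruSeq control libraries and 159, 208 and 210.1 CPM in those of clone 1, and these ranges overlapped. The subunits work as 1 hexamer. As a ratio of MCM7 CPM to the summed CPM of the other 5, the control libraries gave 0.124, 0.130 and 0.129 and the clone 1 libraries 0.176, 0.195 and 0.189. Among libraries with more features MCM7 averaged 135 CPM in 2 control libraries and stood at 175 in 1 knockout library. Among those with fewer it stood at 152 in 1 control library and averaged 217 in 2 knockout libraries. The call rested on several libraries: the edgeR adjusted p was 0.0714 without control replicate 1, 0.112 without control replicate 2, 0.0870 without clone 1 replicate 2 and 0.104 without clone 1 replicate 3, and the log2 change stayed between 0.47 and 0.63.

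PLATE-seq measured MCM7 at 121 and 101 CPM in the control, 176 and 174 in clone 1, 155 and 113 in clone 2, 174 and 163 in clone 3, 105 and 160.0 in the siRNA control and 134 and 141 after SMARCAL1 siRNA. Both libraries of clones 1 and 3 were above both control libraries, and the lower library of clone 2 lay between the 2 control libraries. The log2 changes were 0.66 (SE 0.30, edgeR adjusted p = 0.556) in clone 1, 0.27 (SE 0.30, adjusted p = 0.814) in clone 2 and 0.60 (SE 0.29, adjusted p = 0.419) in clone 3, and after siRNA 0.05 (SE 0.29, adjusted p = 0.990). Of the siRNA control libraries 1 lay between the 2 control libraries and 1 nearer to the clones, and against them the clones differed by 0.39, 0.01 and 0.34. The ratio of MCM7 to the other 5 subunits was 0.273 and 0.322 in the control, 0.399 to 0.513 in clone 1, 0.248 and 0.409 in clone 2, 0.430 and 0.456 in clone 3, 0.332 and 0.487 in the siRNA control, and 0.417 and 0.419 after siRNA. PLATE-seq measured MCM2 at 14.2 and 12.3 CPM in the control, 9.43 and 10.3 in clone 1, 4.12 and 12.2 in clone 2, 14.1 and 12.9 in clone 3, 8.69 and 20.2 in the siRNA control and 9.44 and 6.86 after SMARCAL1 siRNA. Clones 1 and 2 were below both control libraries for MCM2, and clone 3 and the siRNA comparison overlapped with their controls. MCM3, MCM4, MCM5 and MCM6 ran from -1.03 (MCM6, clone 2) to 0.57 (MCM3, clone 3) in the clones.

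**Figure D3:**
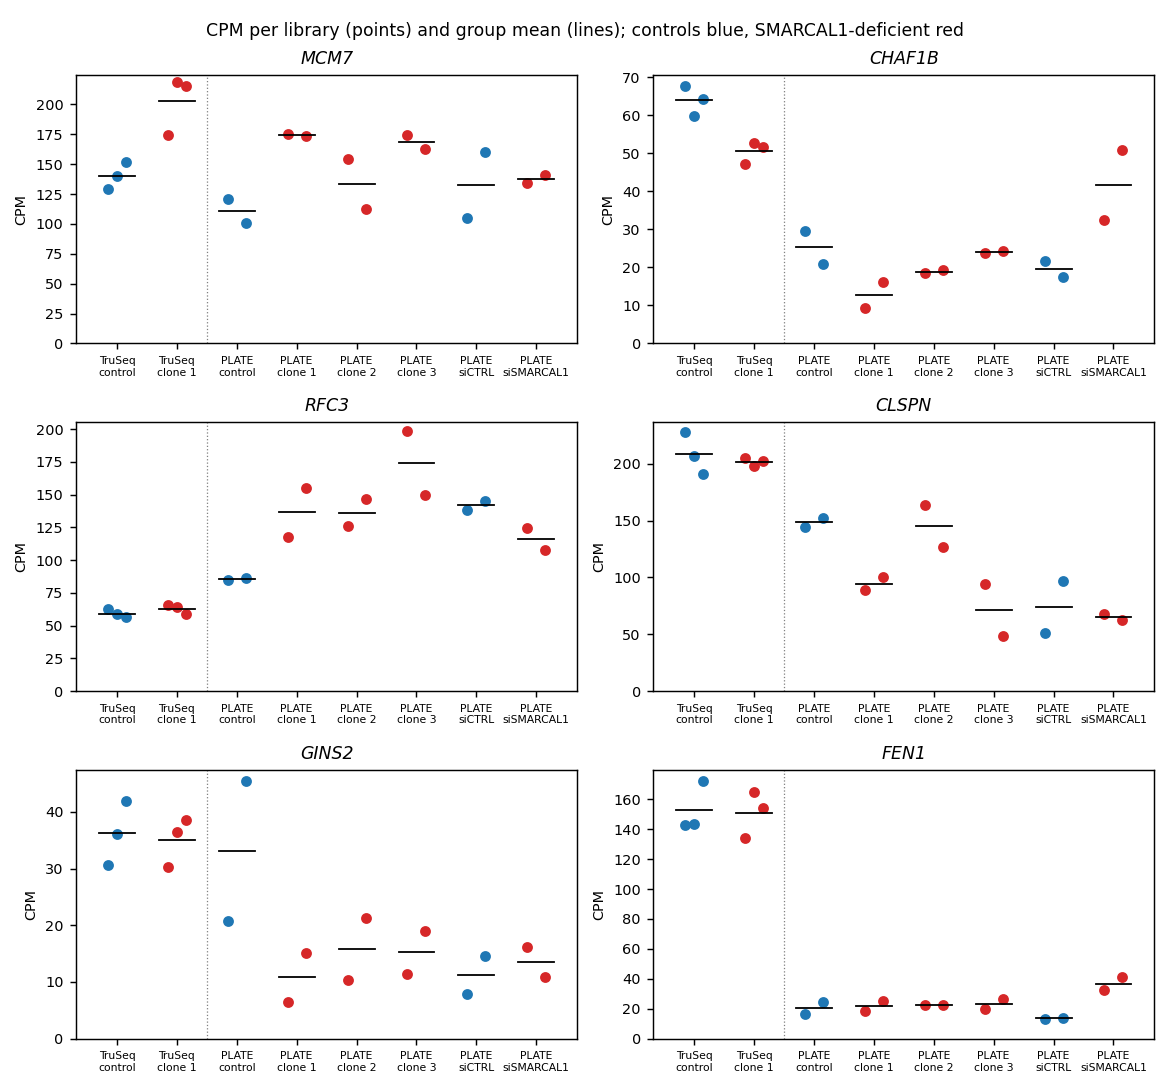
CPM in each library (points) and group means (lines) for MCM7, CHAF1B, RFC3, CLSPN, GINS2 and FEN1 in the 8 groups, with a dotted line between the assays, which were scaled separately. MCM7 is above control in all 3 TruSeq clone 1 libraries, and RFC3 and GINS2 in the siRNA control lie within the range of the clones rather than that of the control.

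MCM7 lies on chromosome 7 (100092728 to 100101940, minus strand, GRCh38, GENCODE 29), and its neighbours rose with it. AP4M1, a subunit of an adaptor complex, shares 392 exonic bases with MCM7 on the opposite strand, and without a stated strand setting of the counting their reads there cannot be told apart. AP4M1 measured 4.50, 6.83 and 5.37 CPM in control and 8.49, 9.65 and 10.3 CPM in clone 1 (log2 0.77, SE 0.17, edgeR adjusted p = 0.0358). COPS6, a COP9 signalosome subunit near MCM7, measured 32.0, 32.8 and 34.0 CPM in control and 44.3, 50.7 and 49.5 CPM in clone 1 (log2 0.55, SE 0.08, edgeR adjusted p = 0.00726). Both were chosen for their position. Of 80 other genes tested within 2 Mb of the MCM7 start, 35 rose and 2 fell by edgeR, against 3.96% higher among all genes, and 76 of the 80 were above 0 with a median log2 change of 0.52. Leaving out 1 library at a time, the count that rose was 10 to 40, lowest without control replicate 2, 14 without clone 1 replicate 2 or replicate 3 and 16 without control replicate 1, and the median stayed between 0.48 and 0.57. In PLATE-seq the median of 37 such neighbours was 0.60 in clone 1, 0.24 in clone 2, 0.27 in clone 3 and 0.09 after siRNA, with 0 past the threshold by edgeR in any of these. At unadjusted p under 0.05 stood 14, 9, 9 and 2 of the 37, where 8.19%, 9.66%, 11.9% and 6.33% of all genes did, and DESeq2 called 2, 1, 1 and 0. The window mattered in clone 2: within 1 Mb of MCM7 the median of 28 neighbours was 0.52 in clone 1, -0.03 in clone 2 (14 of 28 above 0) and 0.18 in clone 3. The log2 change of MCM7 in TruSeq, 0.53, was close to the median of its surroundings, 0.52. DNA copy number was not measured here, and the cause of the regional change was not tested.

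**Figure D4:**
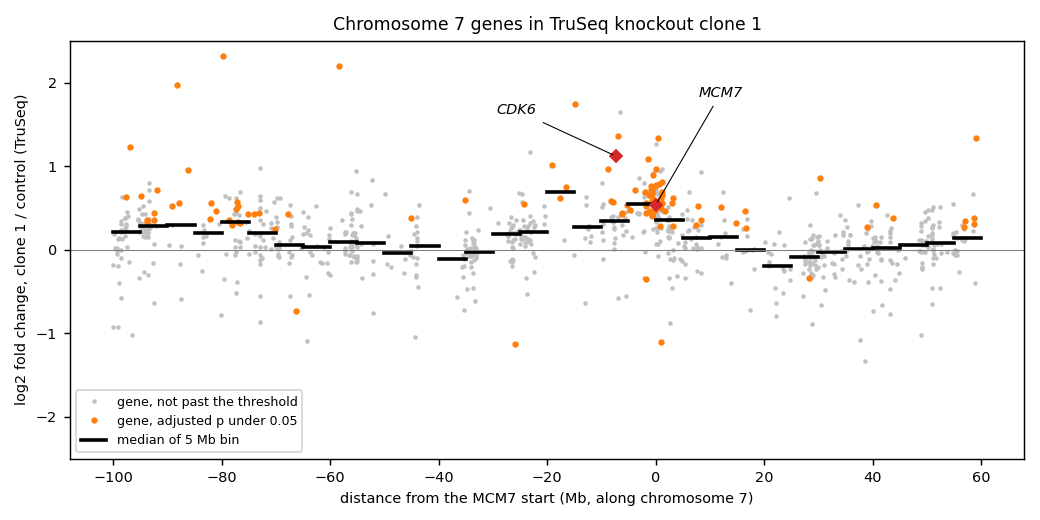
TruSeq log2 fold change of 875 chromosome 7 genes (points, orange past an adjusted p of 0.05; 1 gene lies beyond the axis) by distance from the MCM7 start in Mb, with the median of each 5 Mb bin as a black line. The bins on either side of MCM7 have medians of 0.55 and 0.36, and CDK6, 7.27 Mb away, is at 1.12.

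The other replication genes were set beside their surroundings in the same way. Across the 44 genes the change of a gene and the median of its neighbours within 2 Mb had Pearson's r of 0.65 and Spearman's rho of 0.53 (r 0.51 without MCM7), as a description over genes that share libraries and in part windows. RFC2, also on chromosome 7, was at 0.20 beside neighbours at 0.17, and POLD1 and LIG1, whose windows on chromosome 19 overlap, at 0.18 and 0.17 beside 0.17 and 0.17. ORC1 was at -0.21 beside -0.28. GMNN went the other way, at -0.26 beside 0.13, and CHAF1B at -0.34 went further than its neighbours at -0.13. In PLATE-seq, with 38 genes, r was 0.19 in clone 1, 0.07 in clone 2, 0.34 in clone 3 and 0.05 after siRNA.

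**Figure D5:**
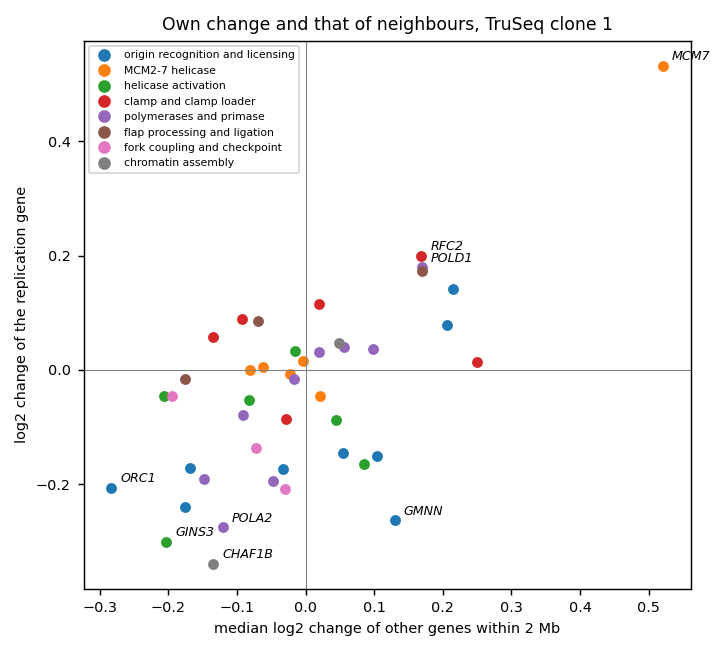
Log2 fold change of each of the 44 replication genes in TruSeq clone 1 (y axis) against the median log2 change of the other genes tested within 2 Mb (x axis), coloured by role. MCM7 lies at 0.52 and 0.53, away from the other 43 genes, which lie between -0.28 and 0.25 on the x axis.

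Helicase activation includes the gene with the lowest level per length in TruSeq control, GINS3 at 3.23 ± 0.42 CPM per kilobase of exon (SD, n = 3), though ORC4 at 3.62 ± 0.24 overlapped it within 1 SD. Of the 6 genes 5 were below 0 in clone 1 and 0 passed edgeR's test. Only 1, GINS3, stood at unadjusted p under 0.05, where 20.4% of all genes did, and DESeq2 called 0. GINS3 measured 14.0, 17.4 and 18.0 CPM in the TruSeq control libraries and 12.7, 14.6 and 12.9 CPM in those of clone 1, with overlap of 1 library in each group (log2 -0.30, SE 0.13, edgeR adjusted p = 0.225). CDC45 measured 41.6, 44.5 and 38.6 CPM in the TruSeq control libraries and 40.3, 38.3 and 38.6 CPM in those of clone 1. CDC45, which joins MCM2-7 in the active helicase, overlapped between groups (log2 -0.09, SE 0.08). GINS2 measured 30.6, 36.1 and 41.9 CPM in the TruSeq control libraries and 30.2, 36.5 and 38.6 CPM in those of clone 1, with near-identical ranges (log2 -0.05, SE 0.13). PLATE-seq measured GINS2 at 20.8 and 45.5 CPM in the control, 6.48 and 15.2 in clone 1, 10.3 and 21.3 in clone 2, 11.5 and 19.0 in clone 3, 7.82 and 14.6 in the siRNA control and 16.2 and 10.8 after SMARCAL1 siRNA. GINS2 was above all 6 clone libraries in 1 control library and close to the highest of them in the other. Its log2 changes were -1.60 (SE 0.62, edgeR adjusted p = 0.485) in clone 1, -1.06 (SE 0.63, adjusted p = 0.632) in clone 2, -1.10 (SE 0.60, adjusted p = 0.483) in clone 3 and -1.25 (SE 0.48, adjusted p = 0.369) for the mean. Against the siRNA control these became -0.06, 0.48, 0.43 and 0.28, so the direction in clones 2 and 3 depended on the control. PLATE-seq measured CDC45 at 2.19 and 7.38 CPM in the control, 5.3 and 1.08 in clone 1, 18.6 and 8.13 in clone 2, 10.6 and 20.2 in clone 3, 0 and 4.18 in the siRNA control and 3.37 and 1.96 after SMARCAL1 siRNA. CDC45 rested on few counts, 2 and 6 in the control, and was among the highest in clone 2 (1.48, SE 1.09, edgeR adjusted p = 0.708) and clone 3 (1.69, SE 1.06, adjusted p = 0.556), with a mean of 0.87 (SE 0.95, adjusted p = 0.810). PLATE-seq measured GINS1 at 8.77 and 13.5 CPM in the control, 4.71 and 7.04 in clone 1, 5.15 and 12.2 in clone 2, 7.49 and 3.01 in clone 3, 13.0 and 10.4 in the siRNA control and 4.05 and 22.5 after SMARCAL1 siRNA, where clone 3 gave -1.10 (SE 0.87, edgeR adjusted p = 0.664). PLATE-seq measured GINS4 at 20.8 and 12.3 CPM in the control, 26.5 and 15.7 in clone 1, 17.5 and 7.11 in clone 2, 14.1 and 9.03 in clone 3, 1.74 and 4.87 in the siRNA control and 14.2 and 2.94 after SMARCAL1 siRNA. After siRNA GINS4 gave 1.37 (SE 0.84, edgeR adjusted p = 0.851), from 2 and 7 counts in the siRNA control, and the 2 siRNA libraries lay far apart. MCM10, which binds the active helicase, was at -0.05 (SE 0.07) in TruSeq and between -0.66 and 0.33 in the clones.

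PCNA, the sliding clamp, was the most abundant per length, at 125 ± 1.77 CPM per kilobase of exon (SD, n = 3) in TruSeq control, followed by MCM4 at 75.8 ± 3.78 and FEN1 at 61.6 ± 6.74. The next, MCM3 at 44.3 ± 1.24, MCM2 at 38.8 ± 6.23 and CLSPN at 38.6 ± 3.42, overlapped each with the next within 1 SD. PCNA measured 185, 186 and 181 CPM in the TruSeq control libraries and 168, 169 and 184 CPM in those of clone 1. The ranges overlapped (log2 -0.09, SE 0.06, edgeR adjusted p = 0.508). Of the 6 clamp and loader genes, 5 were above 0 in clone 1 with a median of 0.07, and 0 passed edgeR's test. Only 1, RFC2, stood at unadjusted p under 0.05, where 20.4% of all genes did, and DESeq2 called 0. RFC2 measured 48.2, 44.4 and 51.9 CPM in the TruSeq control libraries and 52.3, 56.1 and 57.7 CPM in those of clone 1. This loader subunit did not overlap between groups (log2 0.20, SE 0.08, edgeR adjusted p = 0.222). RFC3 measured 62.6, 58.6 and 56.1 CPM in the TruSeq control libraries and 65.4, 64.4 and 58.8 CPM in those of clone 1, with overlap (log2 0.09, SE 0.08, edgeR adjusted p = 0.578). PLATE-seq measured RFC3 at 84.4 and 86.1 CPM in the control, 118 and 155 in clone 1, 126 and 146 in clone 2, 198 and 149 in clone 3, 138 and 145 in the siRNA control and 124 and 108 after SMARCAL1 siRNA. All 6 clone libraries lay above both control libraries for RFC3, another loader subunit. Its log2 changes were 0.68 (SE 0.29, edgeR adjusted p = 0.520) in clone 1, 0.67 (SE 0.30, adjusted p = 0.463) in clone 2, 1.03 (SE 0.29, adjusted p = 0.121) in clone 3 and 0.79 (SE 0.25, adjusted p = 0.231) for the mean. DESeq2 gave an adjusted p of 0.0413 in clone 3. The siRNA control libraries lay within the range of the clones, and against them RFC3 differed by -0.06, -0.06 and 0.29. After SMARCAL1 siRNA it was at -0.29 (SE 0.29, edgeR adjusted p = 0.928). PLATE-seq measured PCNA at 20.8 and 24.6 CPM in the control, 30.6 and 21.7 in clone 1, 23.7 and 27.4 in clone 2, 16.3 and 25.6 in clone 3, 30.4 and 31.3 in the siRNA control and 22.9 and 17.6 after SMARCAL1 siRNA. The PCNA libraries of each clone overlapped the control range, and both libraries after siRNA were below both of the siRNA control (log2 -0.59, SE 0.47). RFC1, RFC4 and RFC5, the other loader subunits, were at 0.01 to 0.12 in TruSeq and between -0.52 and 0.56 in the clones. Named pseudogenes exist for PCNA, RFC3 and RFC5, and in other roles for FEN1 and POLD2. Reads that match both a gene and its pseudogene could have been split or dropped in the counting.

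Polymerase and primase genes gave 4 above and 5 below 0 in TruSeq clone 1, with 0 of 9 past edgeR's test. Only 1, POLA2, stood at unadjusted p under 0.05, where 20.4% of all genes did, and DESeq2 called 0. POLA1 measured 87.4, 76.9 and 75.9 CPM in the TruSeq control libraries and 81.9, 86.3 and 78.6 CPM in those of clone 1. POLA1, the catalytic subunit of polymerase alpha, did not separate the groups (log2 0.04, SE 0.08). POLA2 measured 30.5, 28.9 and 27.7 CPM in the TruSeq control libraries and 26.1, 24.5 and 21.4 CPM in those of clone 1. POLA2, its regulatory partner, was lower in all 3 clone 1 libraries (log2 -0.27, SE 0.10, edgeR adjusted p = 0.152), and it shares 2012 exonic bases with an annotated gene of the same strand. POLD1 measured 81.8, 91.6 and 116 CPM in the TruSeq control libraries and 91.6, 122 and 115 CPM in those of clone 1. POLD1, the catalytic subunit of polymerase delta, was the third highest change (log2 0.18, SE 0.15, edgeR adjusted p = 0.548), with overlap between the groups. POLE2 measured 19.4, 24.3 and 21.1 CPM in the TruSeq control libraries and 22.6, 17.5 and 21.4 CPM in those of clone 1, with overlap, and PRIM1 ran from 45.6 to 54.6 CPM in control and from 39.5 to 45.2 CPM in clone 1. POLE, the catalytic subunit of polymerase epsilon, POLD2, POLD3 and PRIM2 ran from -0.19 to 0.04. PLATE-seq measured POLA1 at 8.77 and 6.15 CPM in the control, 2.36 and 2.71 in clone 1, 6.18 and 15.2 in clone 2, 11.0 and 6.32 in clone 3, 6.08 and 5.57 in the siRNA control and 0.675 and 1.96 after SMARCAL1 siRNA. After siRNA POLA1 had 3 counts in all against 15 in the siRNA control, a CPM ratio of 0.207 (exact counting interval 0.0384 to 0.731, counting error only), and the fitted log2 change was -2.16 (SE 1.19, edgeR adjusted p = 0.824). PLATE-seq measured POLA2 at 7.67 and 0 CPM in the control, 5.89 and 13.5 in clone 1, 2.06 and 7.11 in clone 2, 7.49 and 21.1 in clone 3, 2.61 and 6.26 in the siRNA control and 9.44 and 9.8 after SMARCAL1 siRNA. POLA2 was the highest in clone 1 (1.28, SE 1.04, edgeR adjusted p = 0.814), clone 3 (1.84, SE 1.02, adjusted p = 0.496) and the mean (1.11, SE 0.93, adjusted p = 0.732), from 7 and 0 counts in the control, and opposite in sign to TruSeq. Without control replicate 2, the library at 0, these became 0.34, 0.90 and 0.17, and without replicate 1 the control is at 0 and gives no fold. PLATE-seq measured POLD2 at 15.3 and 18.4 CPM in the control, 5.3 and 16.2 in clone 1, 3.09 and 8.13 in clone 2, 8.81 and 9.03 in clone 3, 1.74 and 18.8 in the siRNA control and 6.07 and 1.96 after SMARCAL1 siRNA. POLD2, an accessory subunit of polymerase delta, was lowest in clone 2 (-1.57, SE 0.95, edgeR adjusted p = 0.634). PLATE-seq measured POLD1 at 13.2 and 7.38 CPM in the control, 9.43 and 7.04 in clone 1, 7.21 and 6.09 in clone 2, 7.49 and 10.2 in clone 3, 6.95 and 8.35 in the siRNA control and 4.72 and 5.88 after SMARCAL1 siRNA. Clone 2 was below both control libraries for POLD1, and clones 1 and 3 overlapped the control. PLATE-seq measured POLE2 at 2.19 and 1.23 CPM in the control, 1.18 and 5.41 in clone 1, 3.09 and 5.08 in clone 2, 1.32 and 6.32 in clone 3, 3.48 and 2.78 in the siRNA control and 2.7 and 0 after SMARCAL1 siRNA, and it was not tested there.

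Flap processing and ligation genes, FEN1, DNA2 and LIG1, gave log2 changes of -0.02, 0.09 and 0.17 in TruSeq clone 1, with 0 of 3 past edgeR's test. Only 1, LIG1, stood at unadjusted p under 0.05, where 20.4% of all genes did, and DESeq2 called 0. FEN1 measured 143, 143 and 172 CPM in the TruSeq control libraries and 134, 165 and 154 CPM in those of clone 1. FEN1 removes the flaps of Okazaki fragments, and its ranges overlapped (log2 -0.02, SE 0.10, edgeR adjusted p = 0.956). LIG1 measured 56.0, 60.5 and 63.0 CPM in the TruSeq control libraries and 66.5, 66.6 and 69.6 CPM in those of clone 1. LIG1, the ligase that seals these fragments, was higher in all 3 clone 1 libraries (log2 0.17, SE 0.07, edgeR adjusted p = 0.223). PLATE-seq measured FEN1 at 16.4 and 24.6 CPM in the control, 18.3 and 24.9 in clone 1, 22.7 and 22.3 in clone 2, 19.8 and 26.8 in clone 3, 13.0 and 13.9 in the siRNA control and 32.4 and 41.2 after SMARCAL1 siRNA. Both libraries after SMARCAL1 siRNA were above all 10 others for FEN1, and both of the siRNA control were below all others. The log2 change after siRNA was 1.44 (SE 0.49, 95% interval 0.43 to 2.44, edgeR adjusted p = 0.546), while the clones gave 0.08 to 0.19. PLATE-seq measured LIG1 at 20.8 and 0 CPM in the control, 9.43 and 6.5 in clone 1, 11.3 and 8.13 in clone 2, 10.1 and 0.903 in clone 3, 13.0 and 11.1 in the siRNA control and 4.05 and 3.92 after SMARCAL1 siRNA. LIG1 was low after siRNA (-1.58, SE 1.13, edgeR adjusted p = 0.889), from 6 and 4 counts against 15 and 16. Its control libraries had 19 and 0 counts.

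Fork coupling and checkpoint genes, CLSPN, TIPIN and WDHD1, were below 0 in TruSeq clone 1 and in each PLATE-seq clone, with 0 of 3 past edgeR's test in each. The 3 clones share 1 PLATE-seq control, in which these genes summed to a mean of 188 CPM. That sum was 112, 171 and 91.4 CPM in clones 1, 2 and 3 and 91.0 CPM in the siRNA control, so their position depended on the control. In TruSeq 1, TIPIN, was at unadjusted p under 0.05, where 20.4% of all genes were, and DESeq2 called 0. CLSPN measured 228, 207 and 191 CPM in the TruSeq control libraries and 206, 198 and 203 CPM in those of clone 1. CLSPN, claspin, carries the checkpoint signal from ATR to CHK1, and its groups overlapped (log2 -0.05, SE 0.08, edgeR adjusted p = 0.800). PLATE-seq measured CLSPN at 145 and 152 CPM in the control, 89.0 and 100.1 in clone 1, 164 and 127 in clone 2, 93.8 and 48.8 in clone 3, 51.3 and 96.7 in the siRNA control and 68.1 and 62.7 after SMARCAL1 siRNA. Claspin in clones 1 and 3 was below both control libraries and in clone 2 around them. The log2 changes were -0.65 (SE 0.35, edgeR adjusted p = 0.655), -0.03 (SE 0.35, adjusted p = 0.989) and -1.07 (SE 0.35, adjusted p = 0.182) in clones 1, 2 and 3. Without clone 3 replicate 1, which had the higher value, clone 3 gave -1.61 with an edgeR adjusted p of 0.0480, and without replicate 2 it gave -0.67 with 0.794. The siRNA control libraries, at 51.3 and 96.7 CPM, were close to those of clone 3, and against it the clones gave 0.35, 0.97 and -0.07. After SMARCAL1 siRNA CLSPN was at -0.18 (SE 0.36, edgeR adjusted p = 0.969). PLATE-seq measured WDHD1 at 46.0 and 8.61 CPM in the control, 10.6 and 7.04 in clone 1, 25.8 and 8.13 in clone 2, 11.5 and 14.4 in clone 3, 8.69 and 9.74 in the siRNA control and 4.72 and 10.8 after SMARCAL1 siRNA. WDHD1 couples the helicase to polymerase alpha. It gave the lowest change of the set in clone 1 (-1.64, SE 0.72, edgeR adjusted p = 0.539) and low in the mean (-1.14, SE 0.56, adjusted p = 0.499), which rested on control replicate 1: without it WDHD1 was at 0.02 in clone 1 and 0.53 in the mean. TIPIN, a partner of the fork protection complex, was at -0.21 (SE 0.09, edgeR adjusted p = 0.238) in TruSeq and at -0.53, -0.60 and -0.78 in the clones. After SMARCAL1 siRNA TIPIN was at 0.67, opposite in sign to the clones, and the other 2 genes of this role were below 0. TIPIN shares 579 exonic bases with RPL9P25 on the same strand.

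Chromatin assembly factor 1 deposits histones on new DNA, and its subunits differed in TruSeq clone 1. CHAF1B measured 67.8, 59.7 and 64.4 CPM in the TruSeq control libraries and 47.3, 52.7 and 51.6 CPM in those of clone 1. Every clone 1 library was below every control library. CHAF1B (chromosome 21, 36385378 to 36419015, plus strand) fell by 0.34 on the log2 scale (SE 0.08, 95% interval -0.52 to -0.16, edgeR adjusted p = 0.0430), from 64.0 ± 4.06 to 50.5 ± 2.86 CPM (SD, n = 3 each). The call was narrow: the edgeR adjusted p was 0.0545 with total counts as library sizes, 0.130 without the filter and 0.0751 to 0.144 with any 1 of the 6 libraries left out, at -0.39 to -0.30. Among libraries with more features CHAF1B averaged 63.8 CPM in 2 control libraries and stood at 47.3 in 1 knockout library. Among those with fewer it stood at 64.4 in 1 control library and averaged 52.1 in 2 knockout libraries. CHAF1B shares 89 exonic bases with MORC3 on the same strand. CHAF1A measured 60.9, 58.3 and 64.7 CPM in the TruSeq control libraries and 58.4, 67.0 and 64.6 CPM in those of clone 1. CHAF1A, the large subunit, overlapped between groups (log2 0.05, SE 0.08, edgeR adjusted p = 0.806). PLATE-seq measured CHAF1B at 29.6 and 20.9 CPM in the control, 9.43 and 16.2 in clone 1, 18.6 and 19.3 in clone 2, 23.8 and 24.4 in clone 3, 21.7 and 17.4 in the siRNA control and 32.4 and 51.0 after SMARCAL1 siRNA. CHAF1B was lower than both control libraries in clones 1 and 2 and within their range in clone 3. The log2 changes were -0.97 (SE 0.50, edgeR adjusted p = 0.650), -0.42 (SE 0.51, adjusted p = 0.840) and -0.07 (SE 0.48, adjusted p = 0.974). After siRNA both libraries were above both of the siRNA control (1.08, SE 0.48, edgeR adjusted p = 0.716), opposite in sign to the clones. PLATE-seq measured CHAF1A at 41.6 and 40.6 CPM in the control, 31.2 and 48.2 in clone 1, 43.3 and 59.9 in clone 2, 50.2 and 35.8 in clone 3, 40.0 and 52.9 in the siRNA control and 35.1 and 27.4 after SMARCAL1 siRNA. Clone 2 was above both control libraries for CHAF1A (0.33, SE 0.41, edgeR adjusted p = 0.843), and clones 1 and 3 spanned the control.

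Genes around the replication machinery in TruSeq clone 1 were read from 4 further lists, by edgeR adjusted over all genes, of which 6.27% passed. Of 32 other replication factors 3 passed, with MCMBP, which binds MCM subunits, up (log2 0.50, SE 0.06) and DONSON (-0.36, SE 0.08) and DSCC1 (-0.33, SE 0.08), factors of the fork and of clamp loading for cohesion, down, and the list's median was -0.00. Of 12 genes of nucleotide supply 2 passed: DTYMK, thymidylate kinase, rose (0.72, SE 0.14) and CTPS1, CTP synthase, fell (-0.42, SE 0.07). Of 24 E2F factors, pocket proteins and S-phase cyclins with their kinases and inhibitors 5 passed. CDK6 (1.12, SE 0.09), CDKN1A (0.97, SE 0.13), CCND1 (0.52, SE 0.08) and E2F3 (0.42, SE 0.07) rose and TFDP1, the E2F partner, fell (-0.46, SE 0.08). CDK6 and CCND1 act before S phase as kinase and cyclin, and CDKN1A is a kinase inhibitor. CDK6 lies 7.27 Mb from MCM7, outside the 2 Mb window. Of 24 mitosis genes 3 passed, with KIF11 up (0.26, SE 0.06) and CDCA8 (-0.45, SE 0.06) and UBE2C (-0.27, SE 0.06) down. Their median was -0.13, and their summed level was 5091 to 5164 CPM in control and 4842 to 4875 CPM in clone 1. DESeq2 called the same genes in TruSeq and added SSRP1, CCNB1 and CDC20. In TruSeq 5 of 32 other replication factors and 4 of 12 genes of nucleotide supply stood at unadjusted p under 0.05. So did 11 of 24 E2F and cyclin genes and 10 of 24 mitosis genes, where 20.4% of all genes did. In PLATE-seq edgeR called 0 of each of the 4 lists in clone 1, where 3 of 26 tested other replication factors, 1 of 11 of nucleotide supply, 1 of 19 E2F and cyclin genes and 3 of 24 mitosis genes stood at unadjusted p under 0.05 (8.19% of all genes did) and DESeq2 called 0. The other PLATE-seq comparisons also gave 0 by edgeR. At unadjusted p under 0.05 stood 0 to 6 genes of a list, against 6.33% to 11.9% of all genes. The most were 6 of 26 other replication factors after SMARCAL1 siRNA (6.33% of all genes) and 5 of 26 in clone 3 (11.9%). DESeq2 called AURKA in clone 3 and CCND1 among the clones.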

How the data were processed

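RNA was measured in 6 TruSeq stranded total RNA libraries and 12 PLATE-seq libraries. The authors deposited raw counts per gene, and STAR, HTSeq and hg38 are named in the submitters' processing notes. Versions, the annotation release and the strand setting of the counting are not given in the sources used here. Gene positions and exon lengths came from GENCODE 29 (GRCh38), and 92 spike-in entries were left out. The 44 genes and the further lists were chosen with earlier results of these data known. Each assay was fitted on its own, all groups together, after edgeR's filter on low counts (17371 genes with 44 of the set in TruSeq, 8595 genes with 39 in PLATE-seq), with TMM library sizes and the quasi-likelihood test of edgeR 4.0.16 in R 4.3.3. Benjamini-Hochberg adjustment ran over every gene of the fit, and the threshold was 0.05. DESeq2 1.42.0, other library sizes, no filter, a replicate block, the siRNA control as control and each library left out were alternatives. The fits were also tested on simulated counts. Residual degrees of freedom were 4 and 6. CPM are counts scaled by TMM library size. Fold, standard error and adjusted p were printed for each gene past the threshold, the 3 highest and 3 lowest in TruSeq and the 2 highest and 2 lowest in each PLATE-seq comparison, and values per library for these and for 16 genes fixed by role. Windows of 2 Mb around start sites were chosen after the data were seen. Intervals from counts cover counting error only. A marker gene is not reported here.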

Additional observations from a re-analysis of the deposited data

How the results depend on the processing

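Values that moved with the processing follow. In TruSeq the genes past the threshold numbered 2387 with a replicate block and 3793 with the side of the split by detected features as a term. Of the 44 replication genes 9 passed with that term, 1 without the filter and 1 with total counts as library sizes, and their median log2 change was then -0.057, -0.0089 and -0.052. Leaving out 1 library at a time gave 245 to 1157 genes, 0 to 1 of the 44, and medians of -0.059 to -0.013. In PLATE-seq DESeq2 called 18 genes in clone 1, 39 in clone 2, 122 in clone 3, 53 for the mean of the clones, 13 after siRNA and 163 among clones, with 1 of the set in clone 3. Without the filter these numbers were 36, 61, 156, 83, 22 and 230, and the medians of the set were -0.066, -0.085, 0.0016 and, for the mean, -0.11, so that clone 3 changed sign. With total counts as library sizes 5 genes passed in clone 2, and the median of the set after siRNA, 0.037, became -0.062 (-0.0086 with the replicate block). Set against the siRNA control, 7, 13 and 24 genes passed in clones 1, 2 and 3, and the medians of the set were 0.10, 0.045, 0.21 and, for the mean, 0.058. The same swap reversed ORC1 in clone 1 (-0.31), GINS2 in clone 2 (0.48), clone 3 (0.43) and the mean (0.28), and WDHD1 in the mean (0.43). Leaving out 1 library at a time gave 0 to 2 genes in clone 1 (medians of the set -0.13 to -0.0060), 0 to 9 in clone 2 (-0.14 to -0.0013), 5 to 128 in clone 3 (0 to 1 of the set, -0.071 to 0.13), 5 to 51 for the mean (-0.25 to 0.0047), 0 to 2 after siRNA (-0.13 to -0.012) and 11 to 121 among clones. It moved GINS4 after siRNA from -0.21 to 2.31, WDHD1 in clone 1 from -2.39 to 0.024 and WDHD1 in the mean from -1.88 to 0.53. The causes of these shifts were not tested. Whether replicate numbers pair the samples is not settled by these values. Deviations of same-numbered libraries correlated at -0.27 to 0.58 in TruSeq (3 pairs), where those of different numbers ran from -0.68 to 0.57. In PLATE-seq same-numbered libraries correlated at -0.06 to 0.06 (30 pairs), where the 2 libraries of a group mirror each other, so values repeat. There the spike-in share was 0.0230% to 0.0534% in libraries numbered 1 and 0.000205% to 0.00136% in those numbered 2. The cause of that difference was not tested. With the replicate block 2 of the 44 passed in TruSeq, and in PLATE-seq 0, 3, 53, 15, 0 and 64 genes passed in the order above, with 0 of the set by edgeR. PLATE-seq depth limits the set: 0 of 39 intervals lay within a log2 change of 0.50 in any comparison with a control.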

Other observations

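Chromosome 7 carried higher values beyond the neighbourhood of MCM7 in TruSeq clone 1. Its median log2 change was 0.15 over 875 genes, while that of chromosome 19 was 0.08 over 1134 genes. Bins of 5 Mb between 70 and 100 Mb before the MCM7 start had medians of 0.20 to 0.33, and those between 20 and 35 Mb after it had medians of -0.20 to -0.03. Of the wider replication and cell cycle lists, CDK6 (1.12), DBF4 (0.28), LRWD1 (0.36) and RPA3 (0.07) lie on this chromosome, and CDK6 alone of these 4 passed edgeR's test. These values were read after the data were seen, and their cause was not tested.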
